A study of Mus musculus with 16 samples.

Results

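Profilins, cofilins, beta-thymosins and the cytoplasmic actins were followed through the whole-muscle, polysome and monosome RNA of mouse gastrocnemius, the large calf muscle. The members were the 8 genes Pfn1, Pfn2, Cfl1, Cfl2, Tmsb4x, Tmsb10, Actb and Actg1, and every non-control probe that the array design names for one of them was taken, which gave 19 of 55681 probes. The set was chosen by a measured value, the low whole-muscle signal of Pfn1 in Het mice, and with other earlier results in view. The members' Het minus WT values in whole muscle, and the ratios that contain them, are therefore given as descriptions without a test.

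Actin passes continually between single molecules and filaments, and these genes encode the proteins that set the balance. Profilins recharge actin monomers with ATP and deliver them to growing filament ends, cofilins sever older filaments and free their monomers, and thymosins hold monomers in reserve. Beta-actin and gamma-actin, the products of Actb and Actg1, form the cytoskeleton of non-muscle cells and a minor part of the actin in a muscle fibre, whose thin filaments are built from other actins. Cofilin-2 is the cofilin of mature muscle, whereas cofilin-1, profilin-1 and the thymosins are best known from non-muscle cells.

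The study compared WT male mice with Het littermates that carried 1 functional copy of Eif6 in every cell of the body (Eif6+/-, C57BL6 background, 8 to 16 weeks old). Eif6 encodes a factor that binds the large ribosomal subunit. Whole-muscle RNA and RNA from the polysome fractions of a sucrose gradient, where transcripts carry several ribosomes, were measured in 3 WT and 3 Het mice, and RNA from the monosome fraction in WT mice 1 and 2 and Het mice 1 and 3. The question posed by the design was whether a lower dose of Eif6 changes which transcripts are loaded on ribosomes.

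The 16 single-colour arrays differed in quality, which touches several values below. The 75th percentile of the processed signal ran from 12.7 to 150 scanner units, and the share of spots well above background from 23.5% to 45.9%. In whole muscle the 3 Het arrays (13.5 to 33.0 units) were all dimmer than the 3 WT arrays (42.3 to 150 units). In 1171 genes with probes at least 500 bases apart, the median 5′ minus 3′ log2 signal reached 0.60 and 0.82 on the polysome and monosome arrays of WT mouse 2, against -1.35 to -0.79 on the other 14 arrays. The targeted gene followed its label: the Eif6 probe A_52_P85864 gave a log2 signal of 9.55 ± 0.36 in WT and 8.63 ± 0.11 in Het whole muscle, and of 10.59 ± 0.38 and 9.29 ± 0.12 in polysomes (SD, n = 3 each). All 7 muscle fibre markers, Acta1 and Ckm among them, cleared the background on each of the 16 arrays.

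Several probes read 1 gene at different places, so the probe sequences that decide what was measured are given here, 5′ to 3′, with positions on mouse build mm9. Pfn1 had 2 probes, A_51_P220993 and A_55_P2003502, designed on different transcripts. The second is shown because it was dim and did not follow the first; it lay on the minus strand at chr11:70466156-70466215.
Pfn1 A_55_P2003502: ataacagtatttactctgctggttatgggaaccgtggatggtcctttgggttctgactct

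Of the 5 Actg1 probes, 3 overlapped upstream on the minus strand, at chr11:120208409-120208468, chr11:120208371-120208430 and chr11:120208361-120208420, and 2 lay downstream at the 3′ end of the gene, beyond a gap of 1304 genomic bases. The 3 upstream probes are shown because they did not have the same letters where they overlapped; capitals mark the differing bases. The first and second were equal at all 22 shared positions, whereas the second and the third differed at 4 of 50. Counted from 1 at the 5′ end of A_52_P72237, with its base first and that of A_55_P1985984 last, these were G19A, A33G, T35G and T50C.
Actg1 A_55_P2008907: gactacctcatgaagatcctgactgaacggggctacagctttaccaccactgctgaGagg
Actg1 A_52_P72237: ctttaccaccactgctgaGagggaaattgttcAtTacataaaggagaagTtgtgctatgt
Actg1 A_55_P1985984: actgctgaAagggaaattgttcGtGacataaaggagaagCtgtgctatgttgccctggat

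Cfl1 was likewise read by 1 upstream probe, on the plus strand of chr19:5493399-5493458, which is shown because it behaved differently from the 2 downstream probes, the nearer of which began after a further 423 bases.
Cfl1 A_55_P1974788: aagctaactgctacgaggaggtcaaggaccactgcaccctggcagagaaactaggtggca
The 2 Tmsb10 probes shared 57 positions and differed at 3 of them (A26G, C34T and C36T, counted from 1 at the 5′ end of A_55_P2092085), and they are not independent readings. Of the 19 probes, 17 cleared the background throughout 1 group or more and entered the fits. The exceptions were Pfn2 A_55_P2159400, which was not well above background on any array, and Tmsb4x A_55_P2061739, which was above it on 1 of 16 arrays. Because probes differ in affinity, no probe's level is set against that of another probe.

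Levels over the 6 groups were compared on the 16 arrays normalized together, with the brightest probe standing for each gene. Cfl2 A_66_P100159 was highest in WT whole muscle (mean log2 signal 10.66) and lowest in WT monosomes (7.70), and its only gap without overlap lay between Het monosomes (10.23) and WT polysomes (9.21). Actb ran from 15.77 in WT monosomes to 13.97 in Het monosomes, and the 2 WT ribosomal groups stood clear of all 4 others, of which Het polysomes came first at 14.48. Tmsb10 A_55_P2092085 had the same break, between WT polysomes (11.71) and Het monosomes (10.65).

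For Cfl1 A_52_P748958 the break lay between WT polysomes (11.03) and Het polysomes (10.41), below WT monosomes (11.50). Pfn1 A_51_P220993 fell in 5 overlapping groups from 8.29 in WT monosomes to 7.33 in Het polysomes, with Het whole muscle alone below them at 5.42. The neighbouring groups overlapped throughout for Pfn2 (10.75 in Het monosomes to 8.68 in WT monosomes), Tmsb4x (12.82 in WT polysomes to 11.62 in WT monosomes) and the downstream Actg1 probe A_55_P1970597 (13.02 in WT polysomes to 12.02 in Het monosomes). Neighbours in these orders that overlapped did not differ beyond their spread.

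**Figure D1:**
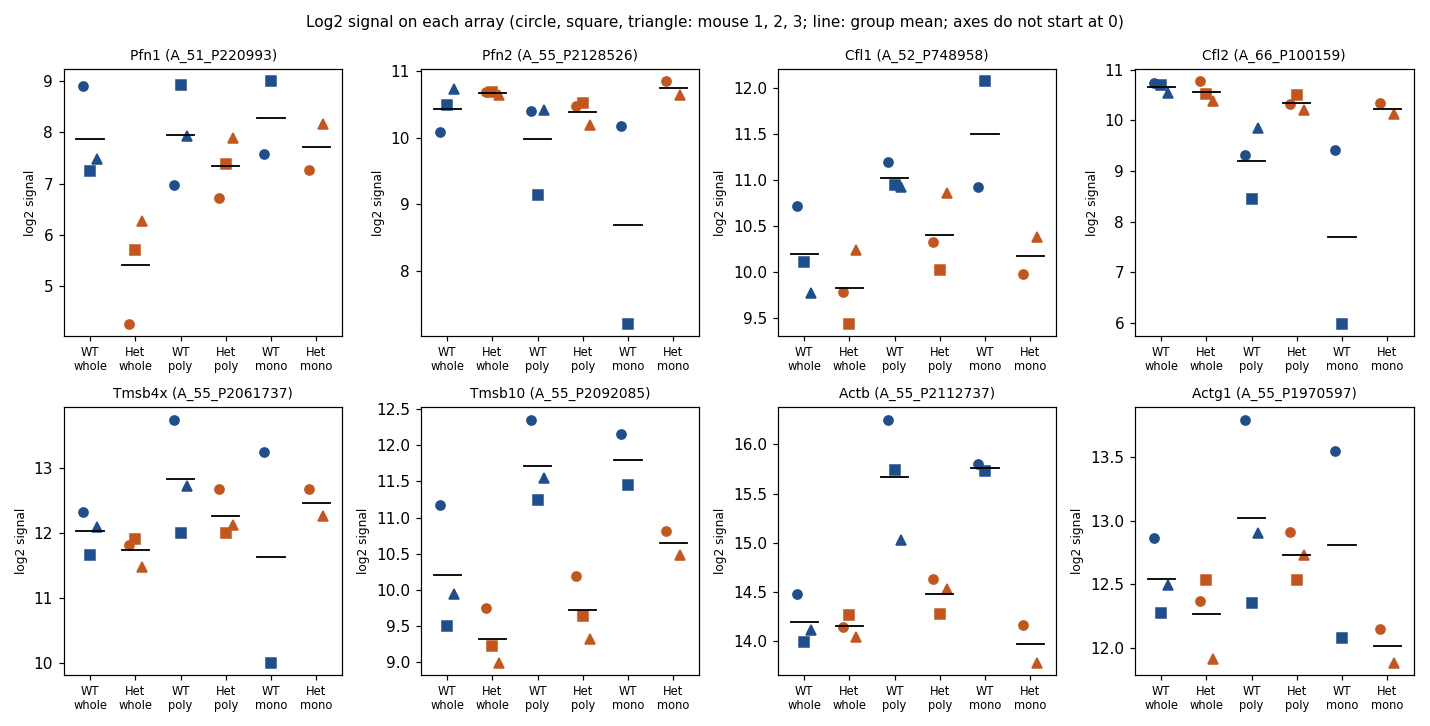
Log2 signal of the brightest probe of each of the 8 genes (y axis, separate scale per gene) in the 6 groups of genotype and RNA kind (x axis), on 16 arrays normalized together. Each point is 1 array, the shape gives the mouse and the line the group mean; Pfn1 sits lowest in Het whole muscle (mean 5.42), and Actb and Tmsb10 are high in WT polysomes and monosomes.

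In whole muscle the profilin-1 signal chose the set. Pfn1 A_51_P220993 read 9.19, 7.54 and 7.77 in WT mice 1 to 3 and 4.48, 5.97 and 6.55 in Het mice 1 to 3. All Het arrays were below all WT arrays, by 2.50 on average (log2, SE 0.65), a 5.65-fold lower signal. Within slide 1 of the array set the difference was -1.51 and within slide 2 it was -3.88, and with the authors' own value table, from which no background had been subtracted, it was -1.62. The Het arrays on which Pfn1 was low were also the dimmer ones, and the part of brightness in this value was not tested; with log2 brightness as a term the difference was -2.82.

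The second Pfn1 probe could not be read as moving the other way. A_55_P2003502 gave 3.95, 3.82 and 3.48 in WT and 4.02, 4.15 and 4.73 in Het whole muscle, but it was well above background on 2 of 3 WT arrays and on none of the Het arrays. Its values are close to background in every group. Pfn2, the profilin more typical of neurons, read 10.37, 10.77 and 11.02 in WT and 10.98, 10.97 and 10.93 in Het mice, and the groups overlapped.

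Upstream probes of Actg1 followed Pfn1 in whole muscle and the downstream ones did so less. Actg1 A_52_P72237 read 8.98, 7.47 and 7.98 in WT and 5.998, 6.38 and 6.81 in Het mice, without overlap, a difference of -1.75 (SE 0.52). A_55_P2008907 read 12.15, 11.08 and 10.88 in WT and 10.61, 10.55 and 10.66 in Het mice, again without overlap, with a difference of -0.76 (SE 0.37). The last upstream probe, A_55_P1985984, was lower by 0.91 (SE 0.47) with overlapping groups.

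Downstream, by contrast, the Actg1 probes A_55_P2114993 and A_55_P1970597 differed by -0.31 (SE 0.36) and -0.27 (SE 0.35). The same order held in Cfl1, where the upstream probe differed by -1.02 (SE 0.58) and the downstream ones by -0.38 (SE 0.31) and -0.68 (SE 0.42), all with overlap. Without WT mouse 1 the Cfl1 differences came to -0.20 upstream and to -0.12 and -0.33 downstream, and the order was lost. The upstream Cfl1 probe was well above background on 1 of 3 Het arrays. Over the 1171 genes the median 5′ minus 3′ signal was -1.05 to -0.91 on WT and -1.35 to -1.002 on Het whole-muscle arrays, and its part in the gap between upstream and downstream probes was not tested.

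The remaining members gave smaller differences than Pfn1 in whole muscle. Tmsb10 was lower in Het mice by 0.88 (SE 0.44) and 0.76 (SE 0.46) at its 2 probes, Tmsb4x by 0.29 (SE 0.40), Cfl2 by 0.10 (SE 0.31) and 0.20 (SE 0.24), and Actb by 0.05 (SE 0.29), each with overlapping groups. Of the 17 probes 15 were lower in Het, with a median difference of -0.38 against -0.03 over all 19812 tested probes. Groups did not overlap downwards at 3 member probes, where 8.46% of all tested probes did so, and upwards at 1, the near-background Pfn1 probe, where 5.09% of all did so. Since this contrast chose the members, these counts describe them and nothing is read from them. Marker lists had lower values beside them: all 8 immune cell markers tested (3 past the study's threshold, summed log2 level 9.75 to 12.34 in WT and 9.88 to 10.12 in Het mice), 5 of 6 endothelial markers (2 past it) and all 4 smooth muscle markers (1 past it) and 5 of 6 fibroblast markers (0 past it), none past the adjusted limma p. Red cell markers had higher values at 3 of 4 (1 lower past it). Muscle fibre markers had lower values at 5 of 7 and adipocyte markers split into 2 higher and 2 lower, with 0 past it. Over all genes 2.08% passed the threshold as higher and 2.96% as lower. The part of these cells in the lower members was not tested.

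Polysome RNA is a different RNA kind from the one whose signal chose the set, but it came from the same mice and is not independent of that choice. In polysomes thymosin-beta 10 and beta-actin were lower and cofilin-2 was higher in Het mice, whereas profilin-1 was not separated. At the study's threshold, an absolute log2 difference above 1 with an unadjusted limma p below 0.05, 4 of 17 probes passed, 3 of them lower (2 of Tmsb10 and 1 of Actb) and 1 higher (Cfl2), where 5.75% of all tested probes passed (1.55% lower and 4.2% higher). No member passed a Benjamini-Hochberg adjusted p of 0.05, and none of the 19812 probes did; 5 member probes had an unadjusted limma p below 0.05, against 15.2% of all probes. Groups failed to overlap at 4 member probes downwards and at 2 upwards, where 8.6% and 13.2% of all probes did so.

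Tmsb10 sequesters actin monomers. Its probe A_55_P2092085 read 12.63, 11.53 and 11.82 in WT polysomes and 10.49, 9.94 and 9.62 in Het polysomes. Every Het array was more than 1 log2 unit below every WT array. The difference was -1.98 (SE 0.44, limma p = 0.000969, adjusted p = 0.200; exact permutation p = 0.1, the smallest that 3 against 3 allow), a 3.94-fold lower signal.

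The overlapping Tmsb10 probe A_55_P2168990 gave 12.15, 10.90 and 11.19 against 9.89, 9.23 and 9.001, a difference of -2.04 (SE 0.46, limma adjusted p = 0.203). The difference of the first probe was -1.59 within slide 1 and -2.04 within slide 2, and -2.21 without WT mouse 2, whose ribosomal arrays stood apart. The related thymosin Tmsb4x read 14.03, 12.27 and 12.999 in WT and 12.95, 12.27 and 12.39 in Het polysomes, and its groups overlapped (difference -0.57, SE 0.40, limma adjusted p = 0.474).

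Actb encodes beta-actin. In polysomes it read 16.58, 16.11 and 15.40 in WT and 14.98, 14.60 and 14.88 in Het mice. The Het values were all below the WT values, although WT mouse 3 came within 0.5 log2 units of Het mouse 1. The difference was -1.21 (SE 0.29, limma p = 0.00157, adjusted p = 0.203, exact permutation p = 0.1), or 2.32-fold. It was -1.37 within slide 1, -0.66 within slide 2 and -0.94 without WT mouse 1, the last with a limma p below 0.05 but under the fold threshold.

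Gamma-actin did not follow beta-actin in these polysomes. The downstream Actg1 probe A_55_P1970597 read 14.09, 12.63 and 13.19 in WT and 13.19, 12.81 and 13.01 in Het mice, a difference of -0.30 (SE 0.35, limma adjusted p = 0.656). The 4 other Actg1 probes differed by -0.31, 0.05, 0.05 and 0.86, and all had overlapping groups and limma adjusted p values of 0.388 to 0.966. The 0.86 belonged to A_55_P1985984, which differs at 4 bases from the overlapping probe that gave 0.05 (limma adjusted p = 0.966).

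Cfl2, the muscle cofilin, was higher in Het polysomes at both probes. A_66_P100159 read 9.61, 8.76 and 10.14 in WT and 10.62, 10.80 and 10.49 in Het mice. A_51_P302149 read 7.57, 7.63 and 8.12 in WT and 8.35, 8.93 and 8.95 in Het mice. The Het arrays were above all WT arrays at each probe, by 1.13 (SE 0.31, limma p = 0.00358, adjusted p = 0.225) and 0.97 (SE 0.24, limma p = 0.00201, adjusted p = 0.210), with an exact permutation p of 0.1 at each.

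The first of these lost the fold threshold without WT mouse 2 (0.76), and fell to 0.51 within slide 2 and rose to 1.43 within slide 1. The second kept close to its value without WT mouse 2 (0.90). Cfl1, the non-muscle cofilin, lay on the other side. Its downstream probe A_52_P748958 read 11.48, 11.23 and 11.21 in WT and 10.62, 10.32 and 11.15 in Het mice, without overlap but with a difference of -0.62 (SE 0.31) that missed the threshold (limma adjusted p = 0.361).

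The 2 other Cfl1 probes differed by -0.83 and -0.41 with overlapping groups. Pfn1 A_51_P220993, which had separated the genotypes in whole muscle, read 7.25, 9.21 and 8.23 in WT and 7.01, 7.68 and 8.19 in Het polysomes. These groups overlapped, and the difference of -0.61 (SE 0.65, limma adjusted p = 0.628) was within their spread. Pfn2 differed by 0.40 (SE 0.33, limma adjusted p = 0.529) and turned to -0.02 without WT mouse 2.

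**Figure D2:**
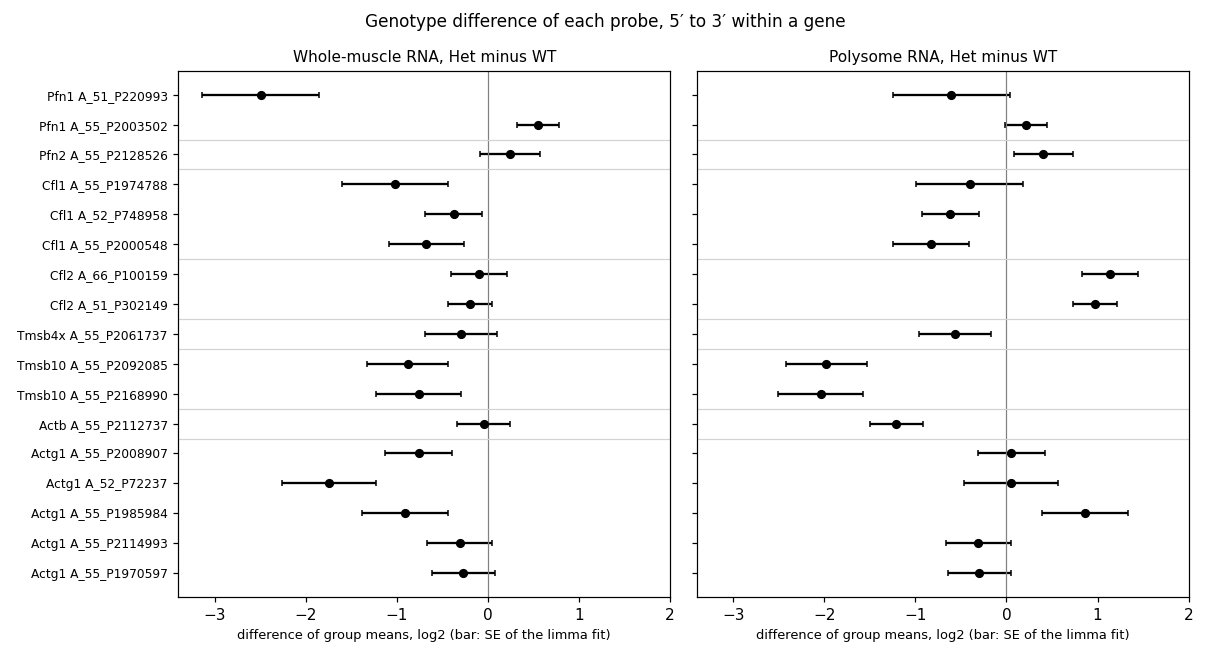
Het minus WT difference of the group means (x axis, log2) for each of the 17 fitted probes (y axis, 5′ to 3′ within a gene) in whole-muscle RNA (left) and polysome RNA (right), 3 mice per group, with bars for the SE of the limma fit. The left panel was used to choose the members and carries no test; on the right, Tmsb10 (-1.98 and -2.04) and Actb (-1.21) lie below 0 and Cfl2 (1.13 and 0.97) above it.

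Marker lists of other cells were read beside these polysome differences, and none of their genes passed the adjusted limma p. All 4 red cell markers had lower values in Het polysomes, 2 of them past the study's threshold, with a summed log2 level of 14.30 to 15.31 in WT and 13.27 to 13.72 in Het mice, and 5 of 6 fibroblast markers had lower values, 0 past the threshold, with 15.79 to 15.85 in WT and 15.19 to 15.36 in Het mice. All 8 immune cell markers tested had lower values, 1 past the threshold (10.73 to 12.50 against 10.16 to 11.18, overlapping), whereas all 7 muscle fibre markers had higher values, 0 past it (19.22 to 19.32 against 19.50 to 19.54). Endothelial markers split into 3 higher and 3 lower, smooth muscle markers into 2 and 2, and adipocyte markers into 1 and 3, with 0 past the threshold. Ptprc, the pan-leukocyte marker, was not tested, since it cleared the background on only 2 of 16 arrays. Their part in the lower Tmsb10 and Actb and the higher Cfl2 was not tested, and in RNA of a whole tissue fewer cells of a type and less RNA per cell cannot be told apart.

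Loading, the log2 ratio of polysome to whole-muscle signal within a mouse, was next read as a mean over both genotypes, in which the genotype contrast does not enter. Tmsb10, Tmsb4x, Actb and the downstream Cfl1 probes lay higher in polysomes than in whole muscle, and Cfl2 and 1 upstream Actg1 probe lay lower. The Pfn1 probes are left out of these counts, since the Het whole-muscle signal of one chose the set and the other, dim one entered the fits only through Het polysomes. At an adjusted limma p below 0.05, 9 of the 15 probes of the 7 other genes passed, 6 of them higher and 3 lower (Cfl2 at both probes and Actg1 A_55_P1985984), where 25.3% of all probes passed, 13.5% higher and 11.8% lower. With 1 mouse left out, 3 to 10 of all 17 fitted member probes passed it, where 2324 to 5577 of all 19812 probes did. At the study's threshold 2 passed, Cfl1 A_55_P2000548 and Actg1 A_55_P1985984, where 12.8% of all probes did (5.63% higher and 7.16% lower).

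Cfl1 A_55_P2000548 gave ratios of 1.26, 0.96 and 1.06 in WT mice 1 to 3 and 1.09, 0.46 and 1.28 in Het mice. It was higher in polysomes in 6 of 6 mice, by 1.02 (SE 0.16, limma adjusted p = 0.00645). With 1 mouse left out it ran from 0.93 to 1.14 and missed the study's threshold in 3 of 6 fits. Tmsb10 A_55_P2092085 was higher in 6 of 6 mice by 0.95 (SE 0.15, limma adjusted p = 0.00556) and Actb in 6 of 6 by 0.93 (SE 0.18, limma adjusted p = 0.0111). The overlapping Tmsb10 probe A_55_P2168990 was higher in 5 of 6 mice by 0.81 (SE 0.16, limma adjusted p = 0.0125), with a ratio of -0.25 in Het mouse 2.

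For Tmsb10 A_55_P2092085 the ratios were 1.17, 1.74 and 1.58 in WT and 0.45, 0.42 and 0.33 in Het mice, and for Actb 1.76, 1.81 and 0.98 against 0.52, 0.02 and 0.52. The WT ratios of both genes were all above the Het ratios. For Cfl2 A_51_P302149 they were -1.46, -1.44 and -1.22 in WT and -0.41, -0.09 and -0.13 in Het mice, so that this muscle cofilin was below its whole-muscle signal in 6 of 6 mice, by 0.79 on average (SE 0.14, limma adjusted p = 0.00874), and the more so in WT.

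Those genotype gaps in loading contain the whole-muscle contrast and are described only. Het minus WT they were -1.10 (SE 0.29) and -1.28 (SE 0.32) for Tmsb10, -1.16 (SE 0.35) for Actb, and 1.24 (SE 0.43) and 1.17 (SE 0.28) for Cfl2. The ratios of 3 member probes did not overlap upwards and those of 3 did not overlap downwards, where 13.6% and 11.7% of all probes did so.

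For Pfn1 A_51_P220993 the gap in loading was 1.89 (SE 0.86), with ratios of -1.94, 1.66 and 0.46 in WT and 2.53, 1.70 and 1.64 in Het mice. The groups overlapped, and WT mouse 1 alone was below 0. Without WT mouse 1 the gap was 0.89, and within slide 1 it was 0.29. At Actg1 the upstream probes gave gaps of 0.81, 1.80 and 1.78 and the downstream ones 0.00 and -0.02, and without WT mouse 1 the upstream gaps came to 0.21, 1.04 and 1.04 and the downstream ones to 0.26 and 0.21.

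The probes of Actg1 also disagreed in the mean over 6 mice. The upstream A_55_P1985984 differed between polysomes and whole muscle by -1.098 (SE 0.32, 5 of 6 mice, limma adjusted p = 0.0442), with ratios of -3.47, -1.19 and -1.30 in WT and -0.67, -0.06 and 0.10 in Het mice. It missed the study's threshold without WT mouse 1 (-0.73) and without Het mouse 1 (-0.98). The downstream A_55_P1970597 was higher by 0.47 in 6 of 6 mice (SE 0.18, limma adjusted p = 0.106). All 4 smooth muscle markers passed as higher in polysomes than in whole muscle, with Acta2, the smooth muscle actin, higher by 1.94 (SE 0.20, limma adjusted p = 0.00161), while 6 of 6 endothelial, 5 of 6 fibroblast, 4 of 4 adipocyte, 4 of 4 red cell and 6 of 8 immune cell markers had higher values, of which 1, 3, 2, 0 and 3 passed the adjusted p. Muscle fibre markers had lower values at 5 of 7, with a median difference of -0.47 and 1 past the adjusted p. The part of these cells in the ratios of the members was not tested.

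**Figure D3:**
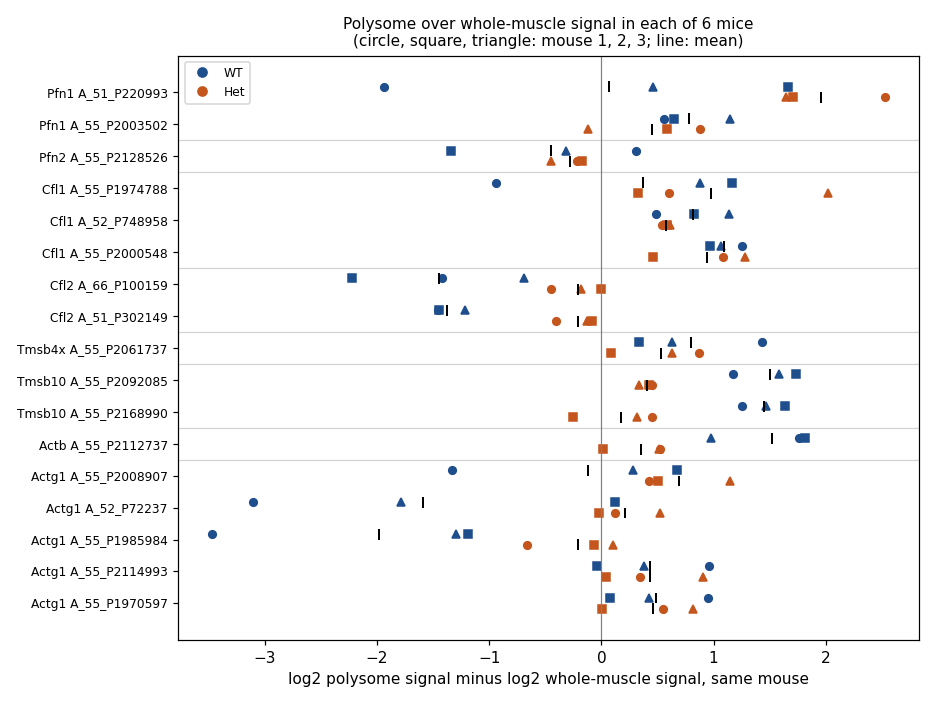
Log2 ratio of polysome to whole-muscle signal within a mouse (x axis) for each of the 17 fitted probes (y axis), with 3 WT (blue) and 3 Het (orange) mice, the shape giving the mouse and the line the mean. The WT ratios of Tmsb10 and Actb lie above the Het ratios, those of Cfl2 below them, and WT mouse 1 is far to the left at the upstream Actg1 probes (-3.47 at A_55_P1985984) and at Pfn1 A_51_P220993 (-1.94).

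Monosome RNA, with 2 arrays per genotype, repeated the direction of Actb on different arrays of some of the same mice. On the 16-array scale Actb read 15.80 and 15.73 in WT mice 1 and 2 and 14.16 and 13.78 in Het mice 1 and 3. The groups were more than 1.5 log2 units apart, with a difference of -1.79 (SE 0.36, limma adjusted p = 0.0520). It was -1.83 without WT mouse 2.

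Tmsb10 A_55_P2092085 read 12.15 and 11.45 in WT and 10.82 and 10.48 in Het monosomes, without overlap, but the difference of -1.15 missed the threshold (SE 0.54, limma adjusted p = 0.156). All 8 immune cell markers tested (1 past the threshold, 10.75 to 11.81 in WT and 10.18 in both Het mice) and all 4 red cell markers (2 past it, 14.18 to 15.62 against 13.82 to 14.07) also had lower values in Het monosomes. Fibroblast markers split into 2 higher and 4 lower, and smooth muscle and adipocyte markers each into 1 and 3 (1 lower past it in each list). Endothelial markers split into 3 and 3 (1 past it each way) and muscle fibre markers into 5 and 2 (0 past it). Over all genes 16.3% passed the threshold as higher and 11.9% as lower. The part of these cells in the lower Actb and Tmsb10 was not tested. The largest monosome differences belonged to Cfl2, at 2.54 (SE 0.77) and 3.71 (SE 1.27), and they rested on WT mouse 2. Its Cfl2 A_66_P100159 signal was 5.97 where WT mouse 1 had 9.42 and the Het mice 10.34 and 10.13. At A_51_P302149 it was 1.42 and not well above background, where WT mouse 1 had 7.71 and the Het mice 8.20 and 8.34.

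Without WT mouse 2 the Cfl2 differences were 0.81 and 0.56 and both missed the threshold. Pfn2, higher by 2.07 (SE 0.70), and Cfl1 A_52_P748958, lower by 1.32 (SE 0.45), rested on the same array and came to 0.58 and -0.75 without it. Those 5 probes, 3 higher and 2 lower, were the members past the study's threshold in monosomes, where 28.6% of all probes passed (17.2% higher and 11.5% lower). No member passed the adjusted limma p, where 0.499% of all probes did; the 12 other probes differed by -1.17 to 0.84. Groups failed to overlap upwards at 3 member probes and downwards at 7, where 26.8% and 23.7% of all probes did so.

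Polysomes and monosomes were then compared with each other. Averaged over genotypes, 0 of the 15 probes of the 7 genes other than Pfn1 differed between polysomes and monosomes at the study's threshold or at the adjusted limma p, where 24.4% and 26% of all probes did, and 2 had an unadjusted limma p below 0.05. With mouse as a block 1 of them passed the adjusted limma p, Cfl1 A_55_P2000548, higher in polysomes by 0.81 (SE 0.21, limma adjusted p = 0.0211). The dim Pfn1 probe A_55_P2003502 was well above background on 5 of 6 polysome and 0 of 4 monosome arrays. Its log2 means were 4.42 in polysomes and 2.55 in monosomes as measured, but it entered the fits only through Het polysomes. No fold and no test of it are therefore given. The other probes lay between -0.53 and 1.55.

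Monosomes were compared with the same whole-muscle arrays as the polysomes, so the values below are not independent of those ratios. Tmsb10 was higher in monosomes by 1.46 (SE 0.35, limma adjusted p = 0.0137) and 1.34 (SE 0.37, limma adjusted p = 0.0240) and Actb by 0.69 (SE 0.23, limma adjusted p = 0.0465). Cfl2 differed by -1.65 (SE 0.50, limma adjusted p = 0.0331) at A_66_P100159 and by -2.33 (SE 0.82, limma adjusted p = 0.0525) at A_51_P302149, and without WT mouse 2 both came to -0.78 and missed the threshold. Tmsb4x (0.17, limma adjusted p = 0.814) and Cfl1 A_55_P2000548 (0.28, limma adjusted p = 0.527), which had been higher in polysomes, passed neither criterion. All 7 muscle fibre markers had lower values in monosomes (3 past the threshold). Over all genes 10.8% passed as higher and 14.1% as lower. Fibroblast markers split into 4 higher and 2 lower (1 higher past it). Smooth muscle and red cell markers each split into 3 and 1 (0 past it). Immune cell markers split into 4 and 4 and endothelial ones into 3 and 3 (1 lower past it in each). Adipocyte markers split into 1 and 3 (0 past it). The part of these cells was not tested.

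The upstream Actg1 probes A_52_P72237 and A_55_P1985984 had differences of -1.1995 (SE 0.40, limma adjusted p = 0.0432) and -1.64 (SE 0.40, limma adjusted p = 0.0144), whereas the downstream ones differed by -0.04 and 0.01. Without WT mouse 1 the first came to -0.87 and missed the threshold. Pfn1 A_51_P220993 differed by 1.36 (SE 0.52), a value that contains the Het whole-muscle signal which chose the set and is given without a test; without WT mouse 2 it was 0.84. Of the 15 probes of the other genes 6 passed the study's threshold, 2 higher and 4 lower, and 6 passed the adjusted p, 3 higher and 3 lower, where 25.3% and 24.9% of all probes did (10.5% higher and 14.8% lower, then 10.8% and 14.2%).

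**Figure D4:**
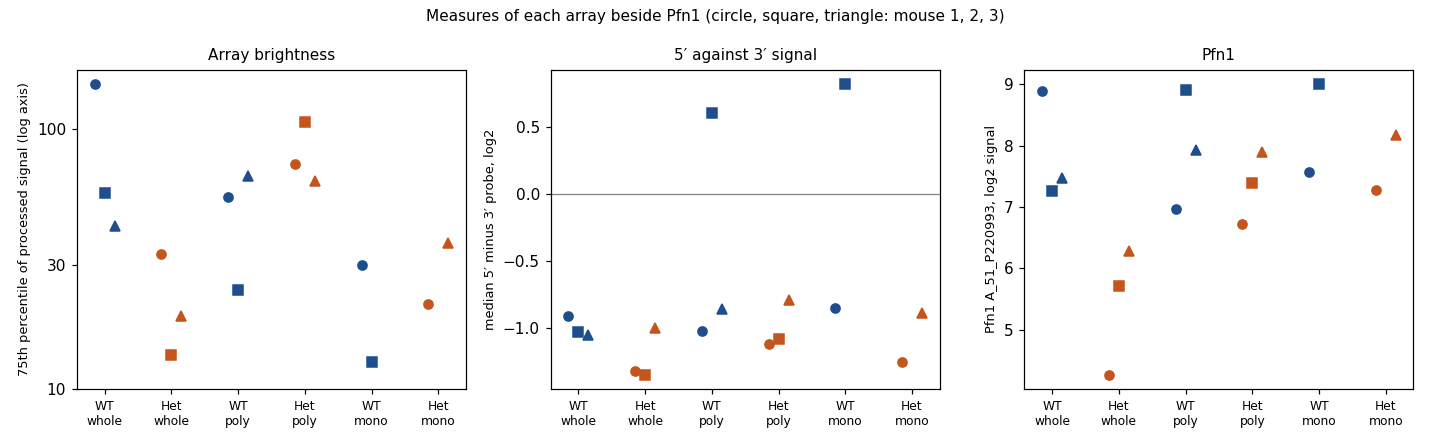
Array brightness (75th percentile of the processed signal in scanner units, log axis), the median 5′ minus 3′ log2 signal over 1171 genes, and the log2 signal of Pfn1 A_51_P220993 (y axes) in the 6 groups (x axis), with 1 point per array and the shape giving the mouse. Het whole-muscle arrays are the dimmest of the whole-muscle and polysome groups on average, and WT mouse 2 stands apart in the middle panel on both its polysome (0.60) and monosome (0.82) arrays.

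Across the 16 arrays, which share slides, mice and differences in brightness, some members varied together, which is given here as a description. Cfl2 and Pfn2 were the closest pair (Pearson r = 0.94), but r was 0.74 without the monosome array of WT mouse 2 and 0.33 without its polysome array as well, an alternative chosen after seeing the data. Actb varied with Tmsb10 (r = 0.81) and Cfl1 (r = 0.78). Cfl1 ran against Cfl2 (r = -0.82). Tmsb4x varied with Actg1 (r = 0.74) and Pfn2 (r = 0.61, but -0.35 without both arrays of WT mouse 2), and Pfn1 with Cfl1 (r = 0.66). Of 15903 genes, those whose pattern was most like Actb were Stat3 (r = 0.97), Flna (r = 0.94), which encodes the actin cross-linker filamin A, and Hist1h2an (r = 0.94).

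For Cfl2 the most similar genes were Mmgt1 (r = 0.99), Cav2 (r = 0.99) and B3galnt2 (r = 0.99), for Pfn2 they were Igip, Rab12 and Arhgef12 (each r = 0.99), and for Tmsb4x they were Ralb (r = 0.97), Cerk (r = 0.96) and Itpripl2 (r = 0.96). Without the polysome and monosome arrays of WT mouse 2 these r values were 0.89 to 0.95 for Cfl2, 0.88 to 0.89 for Pfn2 and 0.92 to 0.98 for Tmsb4x. Pfn1 was most like Synpo2 (r = 0.91), an actin-binding protein of the Z-disc, Pi4kb (r = 0.90) and Hnrnpul1 (r = 0.89). Cfl1 was most like Adar (r = 0.96), Plekho2 (r = 0.95) and a probe without a gene name (r = 0.94), Tmsb10 like Sh3bgrl3 (r = 0.96) and 2 such probes, and Actg1 like Sept9 (r = 0.94) and 2 such probes.

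The wider actin pathway, 84 listed genes of which 70 were tested, had few genes past the threshold between genotypes in polysomes. The lists held regulators of filament recycling, nucleation, capping and signalling, the muscle actins and the remaining profilins and thymosins. In polysomes 2 rose and 2 fell at the study's threshold and 0 passed the adjusted limma p, with a median difference of -0.05 against 0.04 over all genes, where 3.91% of all genes rose and 1.57% fell. Those that rose were Rac1, a small GTPase that acts on actin (1.11, SE 0.38), and Tmod1, which caps the pointed ends of muscle thin filaments (1.07, SE 0.28). Those that fell were Coro1a, a coronin of blood cells (-1.78, SE 0.79), and Wasf2, which activates filament branching (-1.05, SE 0.31), and their limma adjusted p values were 0.220 to 0.322.

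In whole muscle 1 pathway gene passed as higher, Tmod2, and 4 as lower, Vasp (-1.65), Cap1 (-1.10), Ssh3 and Was, where 2.08% and 2.96% of all genes did, with a median difference of -0.23 against -0.01 over all genes and none past the adjusted limma p. Of these, Cap1 was well above background on every whole-muscle array and Vasp on 2 of 3 Het arrays, and Tmod2 (2 of 3 in each genotype), Ssh3 (1 of 3 Het arrays) and Was (0 of 3) are given without a size. Wasf1 is left out of the count, since it entered the fits only through WT whole muscle. Ssh3 encodes a phosphatase that activates cofilin, and Cap1 a partner of cofilin in recycling monomers. Loading differed between genotypes for 6 genes upwards and 3 downwards at that threshold, where 5.89% and 7.69% of all genes did, with Wasf3 (-1.81), Tmod1 (1.75) and Rac1 (1.37) among the largest and again none past the adjusted p. Vasp and Tmod2 were as large and Pak1 was smaller than these, but each had arrays near background and is given without a size.

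Averaged over the 6 mice, 15 of the 70 genes differed between polysomes and whole muscle by the adjusted limma p, which is 21.4% against 25.4% of all genes. Past the study's threshold 6 were higher and 1 was lower, where 5.45% and 6.6% of all genes were; Was is left out, since it entered the fits only through polysomes. Beside Acta2, they included Rhoc (1.24), Tesk1 (-1.23), Wasf2 (1.13) and Daam2, which cleared the background on 1 of 3 Het whole-muscle arrays and is given without a size. Tesk1, the 1 that was lower, encodes a kinase that inactivates cofilin.

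In monosomes 6 pathway genes passed as higher and 10 as lower in Het mice, where 16.3% and 11.9% of all genes did, and 1 of 70 passed the adjusted limma p, where 0.478% of all genes did. That gene was Tmsb15b1, a further beta-thymosin, which read 3.44 and 1.62 in WT and 5.59 and 5.73 in Het mice. It was not well above background on either WT array, so its rise in Het mice is given as a bound, at least 2.18-fold. The limma adjusted p of 0.0241 belongs to the difference as measured from those near-background values, and the bound itself was not tested.

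Most of the next largest monosome values leaned on WT mouse 2. Rock2 differed by 2.62, with WT values of 5.86 and, not well above background, 1.61, and by 0.49 without that mouse. Without it Wasf3 went from -2.25 to -1.35, Arpc5l from 1.92 to 0.91 and Diap1 from -1.80 to -0.72. The value of Was did not shrink without it, but Was stayed near background on both Het monosome arrays.

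Polysomes exceeded monosomes at the adjusted limma p and by more than 1 log2 unit for Twf2 (1.47) and Arpc3 (1.28), which were well above background on all 4 monosome arrays. Lmod2 and Daam2 had similar calls but cleared the background on only 1 and 2 of the 4 monosome arrays, so no size is given. In all 11 were higher and 1 was lower past the study's threshold, where 14.7% and 9.72% of all genes were; Ssh3 and Coro1b are left out, since they entered the fits only through polysomes. Against whole muscle, 20 of 70 genes passed the adjusted limma p, which is 28.6% against 25.3% of all genes. Monosomes were lower for Tmod1 (-1.89) and Fhod3 (-1.60) and higher for Wasf2 (1.57). Lmod2 and Pak1 were also lower but cleared the background on only 1 and 2 of 4 monosome arrays. Beside Actr2, these were the largest of 4 higher and 11 lower past the study's threshold, where 10.8% and 14.1% of all genes were. Actr2 (-2.01) did not pass the adjusted p (limma adjusted p = 0.116) and came to -0.73 without WT mouse 2, whose monosome value was near background.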

How the data were processed

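Per the labels, the 16 samples are single-colour Agilent mouse arrays of whole-muscle, polysome and monosome RNA. The authors deposited a scanner table for each array, whose intensity values are spot signals with the background already subtracted by Agilent Feature Extraction, and a series table of log2 values normalized by them, used here as an alternative only.

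Control spots were left out, spots of 1 probe were averaged, and the log2 processed signal was brought to a common distribution (quantile normalization) over 12 arrays where monosomes do not enter and over all 16 where they do. A probe was tested if well above background throughout at least 1 group (19812 and 20250 probes). Group means were compared with limma 3.58.1 in R 4.3.3, with p values adjusted by Benjamini-Hochberg over all tested probes, and a few probes also by an exact 2-sided permutation test. The number of arrays limits the precision, and each mouse is 1 replicate. The design text has whole-muscle and ribosomal RNA taken from the muscle of each mouse, and arrays of 1 genotype with the same number were taken as 1 mouse, which the labels do not state. Deviations of such polysome and whole-muscle arrays correlated at 0.05 to 0.48, of monosome and whole-muscle arrays at 0.03 to 0.33, and of polysome and monosome arrays at 0.35 to 0.66. Monosome arrays were analysed for 2 mice per genotype. The fits were tested on simulated data with 200 changed probes. Tables were handled with data.table (version 1.17.8) and figures drawn with matplotlib 3.10.9 in Python 3.11.15.

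The members and lists were chosen with earlier results of these data known. All fitted probes of the 8 members entered every comparison, some of them given only within a count or a range. The brightest probe stood for a gene. Pathway genes were named if past the study's threshold, at most the 6 largest per comparison, and likeness was the Pearson r over 16 arrays, with 3 genes per member. Where the files name no gene, none was given. Alternatives covered scaling, background correction, the authors' values, the dim-probe filter, slide, brightness, single mice left out, pairing and the methods' t-test. Sequences are given for 5 of the 19 probes; the others are not reported here.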

Additional observations from a re-analysis of the deposited data

Results flagged for a closer look

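Tmsb4x A_55_P2061739 was the 1 member probe left out of the fits that rose above background anywhere. It did so only on the array of Het monosome 1, with a log2 signal of 5.66, and no comparison uses that value.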

How the results depend on the processing

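Counts of member probes past a threshold moved under several settings, as did counts over all tested probes, so nothing about the members is read from that. The counts here cover all 17 fitted probes and, for the Pfn1 probes, describe values rather than test them. As processed for the comparisons above, those counts were, past the threshold and past the adjusted p, 4 and 0 between genotypes in polysomes, 2 and 10 between polysomes and whole muscle, 5 and 0 between genotypes in monosomes, 1 and 1 between polysomes and monosomes, and 8 and 7 between monosomes and whole muscle. With 75th percentile scaling 2 probes differed between polysomes and monosomes at the study's threshold and 2 at the adjusted p. With normexp background correction, and again with the authors' table, 1 probe passed the threshold between polysomes and whole muscle, 1 passed the adjusted p between genotypes in monosomes, 0 passed the threshold between polysomes and monosomes and 5 between monosomes and whole muscle. Without a filter on dim probes 6 passed the adjusted p between polysomes and whole muscle, 1 between genotypes in monosomes and 3 between monosomes and whole muscle. With probes well above background on all arrays, 1 passed the adjusted p in monosomes and 0 the threshold between the ribosomal fractions. With slide as a term, and with the methods' t-test, 6 passed the adjusted p between polysomes and whole muscle. With brightness as a term 8 passed the threshold between genotypes in monosomes, 3 between polysomes and monosomes, and 4 passed the adjusted p between monosomes and whole muscle.

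Each slide held 1 monosome array per genotype and 1 or 2 of the other groups, so a lone array is assumed to vary like the other groups. Counts of passing probes are therefore not given within a slide. Within slide 1 the Pfn1 differences were -1.51 in whole muscle and 0.29 in loading. Within slide 2 they were -3.88 in whole muscle and 3.58 in loading.

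Leaving out a mouse with a monosome array left 1 such array in its genotype, again with the spread taken from other groups. No counts are therefore given for the comparisons that use monosomes. Leaving out 1 mouse at a time gave Pfn1 differences of -2.94 to -1.91 in whole muscle and 0.89 to 2.69 in loading. The member probes past the threshold, then past the adjusted p, numbered 3 to 6 and 0 to 0 between genotypes in polysomes, 0 to 4 and 3 to 10 between polysomes and whole muscle, 2 to 9 and 0 to 9 between genotypes in monosomes, 1 to 5 and 1 to 7 between polysomes and monosomes, and 5 to 9 and 0 to 10 between monosomes and whole muscle.

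Directions turned for some probes that passed no threshold between genotypes in polysomes. Actg1 A_52_P72237 came to -0.018 with the authors' table, -0.62 within slide 1 and -0.32 to 0.57 with 1 mouse left out. Actg1 A_55_P2008907 came to -0.034 with slide as a term, -0.25 within slide 1, -0.042 with brightness as a term and -0.20 to 0.31 with 1 mouse left out. Leaving out 1 mouse gave -0.63 to 0.095 at Actg1 A_55_P1970597, -0.70 to 0.079 at Actg1 A_55_P2114993 and -0.015 to 0.62 at Pfn2 A_55_P2128526, which was -0.064 within slide 2. The cause was not tested.

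WT and Het mice of the same number only share that number (deviations correlated at 0.22, -0.23 and -0.09 in whole muscle and 0.45, -0.33 and -0.24 in polysomes). With the replicate block 4 member probes passed between genotypes in polysomes, as without it, and the Pfn1 differences were -2.50 and 1.89. With mouse as the replicate block 2 probes passed the adjusted p between polysomes and monosomes, and unpaired, with no replicate block, 3 passed the threshold and 8 the adjusted p between polysomes and whole muscle.

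Over all tested probes, 832 were higher and 307 lower at the threshold between genotypes in polysomes, against 162 and 86 with normexp and 177 and 90 with the authors' table. In whole muscle 394 were higher and 721 lower, against 557 and 409 with 75th percentile scaling, so the split depends on the scaling. Signals near background, as at the dim Pfn1 probe, limit what can be read.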
